A study of Homo sapiens with 10 samples.

Results

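The passenger arms of the let-7 microRNAs were followed in small RNA libraries of ES-2, a long-established line of human ovarian cancer cells. The members were chosen by name, as the let-7 3p arms hsa-let-7a-3p, hsa-let-7a-2-3p, hsa-let-7b-3p, hsa-let-7c-3p, hsa-let-7d-3p, hsa-let-7e-3p, hsa-let-7f-1-3p, hsa-let-7f-2-3p, hsa-let-7g-3p and hsa-let-7i-3p, given without the species prefix from here on. These were 10 of the 2576 mature miRNAs in the table, in 11 of its 2794 rows, since let-7a-3p has 1 row for each of its 2 genomic copies. All 10 had reads in 10 of 10 libraries and passed the filter on low values. The libraries came from parental ES-2 cells transfected with siRNAs against IGF2BP1 (siIGF2BP1, 2 libraries), IGF2BP2 (siIGF2BP2, 3 libraries) or IGF2BP3 (siIGF2BP3, 3 libraries), or with control siRNAs (siC, 2 libraries). IGF2BP1, IGF2BP2 and IGF2BP3 encode paralogous RNA-binding proteins that bind and stabilise mRNAs. The 2 control libraries could not be tied to single samples and are called siC C2 and siC C3. All groups are the same cell line, and the labels do not state whether a group's libraries derive from different cultures.

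A let-7 precursor is a hairpin that Dicer cuts into a duplex of a 5p and a 3p strand. Argonaute usually keeps the 5p strand, which represses growth-promoting mRNAs such as those of RAS, HMGA2 and the IGF2BP proteins, and the 3p or passenger strand is mostly degraded. Argonaute tends to keep the strand that starts with U or A and whose 5′ end is the more weakly paired. Several let-7 genes encode the same 5p strand, so the 3p strands are the mature products that can tell such precursor loci apart. LIN28 proteins block let-7 maturation by binding the loop of the precursor. Most let-7 precursors need addition of a single uridine before Dicer cuts them efficiently, whereas those of let-7a-2, let-7c and let-7e do not.

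Mature sequences from RefSeq (GRCh38.p14) were found for 9 of the 10 members. They are shown because the members differ from each other here, at the bases that choose targets and at the bases that let reads be assigned to a locus. Capitals mark the seed, bases 2 to 8 counted from the 5′ end.
let-7a-3p: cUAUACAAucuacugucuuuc
let-7b-3p: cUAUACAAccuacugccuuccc
let-7f-1-3p: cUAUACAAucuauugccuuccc
let-7d-3p: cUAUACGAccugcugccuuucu
let-7e-3p: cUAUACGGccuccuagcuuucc
let-7a-2-3p: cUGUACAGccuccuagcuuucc
let-7g-3p: cUGUACAGgccacugccuugc
let-7c-3p: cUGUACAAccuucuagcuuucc
let-7i-3p: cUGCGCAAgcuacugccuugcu
The 9 sequences carry 6 seeds. The seed UAUACAA is shared by 3 members, let-7a-3p, let-7b-3p and let-7f-1-3p, and also by miR-98-3p of the same family. The seed UGUACAG is shared by let-7a-2-3p and let-7g-3p, and the other 4 members each have a seed of their own. All 9 start with C, whereas 7 of the 8 let-7 5p arms start with U and let-7d-5p starts with A. The 5p arms, in contrast, all carry the seed GAGGUAG. The closest pairs were let-7a-2-3p with let-7c-3p, let-7a-2-3p with let-7e-3p, and let-7b-3p with let-7f-1-3p, which differ at 2 positions of 22. Reads of these pairs can be exchanged if mismatches were allowed in the counting, whose settings the sources used here do not give.

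The members come from genes on 8 chromosomes. On chromosome 9 the genes of let-7a-1, let-7f-1 and let-7d lie in an intron of the non-coding RNA AL158152.2, with 310 and 2400 bases between neighbours. Here let-7a-3p lies at chr9:94176013-94176033, let-7f-1-3p at chr9:94176409-94176430 and let-7d-3p at chr9:94178895-94178916, all on the plus strand of GRCh38.p14. On chromosome 22 the genes of let-7a-3 and let-7b overlap an exon of MIRLET7BHG with 863 bases between them, with let-7a-3p at chr22:46112800-46112820 and let-7b-3p at chr22:46113745-46113766, plus strand. The gene of let-7a-2 lies in an intron of MIR100HG (let-7a-2-3p, chr11:122146523-122146544, minus strand), where miR-100 and miR-125b-1 are its neighbours. The gene of let-7c lies in an intron of MIR99AHG (let-7c-3p, chr21:16539883-16539904, plus strand) beside miR-99a and miR-125b-2. The gene of let-7e lies in an intron of SPACA6 and opposite an exon of SPACA6P-AS (let-7e-3p, chr19:51692838-51692859, plus strand), beside miR-99b and miR-125a. The gene of let-7f-2 lies in an intron of HUWE1 on chromosome X, 850 bases from that of miR-98. The genes of let-7g and let-7i stand alone, that of let-7g in an intron of WDR82 (let-7g-3p, chr3:52268280-52268300, minus strand) and that of let-7i in an intron of AC048341.1 (let-7i-3p, chr12:62603747-62603768, plus strand).

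Recovered totals were 462724 to 1269743 reads per library, and a normalised read count in the deposited table stands for 0.803 to 2.0 per read. A library with fewer reads therefore measures each member less precisely. The 10 members had 3264 reads in all, 0.0371% to 0.0528% of the reads of a library. The share of reads from 6 blood-cell miRNAs was 0.00284% and 0.0271% in siIGF2BP1, 0.00244% to 0.00525% in siIGF2BP2, 0.00368% to 0.0194% in siIGF2BP3 and 0.0137% and 0.0778% in siC. Of these 6, miR-451a and miR-144-3p were called lower by limma in siIGF2BP2 and in siIGF2BP3 than in siC. In both comparisons miR-150-5p and miR-223-3p were lower but not called, and miR-486-5p had 0 reads in every library. By contrast, miR-142-3p had log2 fold changes over siC of 0.07 in siIGF2BP2 and 0.80 in siIGF2BP3, neither called by limma. It held 146 of the 149 reads behind the 0.0194% of siIGF2BP3 replicate 3. Without siC C3 the call of miR-451a was lost in both comparisons (limma adjusted p 0.0928 in siIGF2BP2 and 0.122 in siIGF2BP3). Their part in the values of the members was not tested. The labels give ES-2 as the source name of siIGF2BP1 and siC, and a general name of an ovarian cancer line for siIGF2BP2 and siIGF2BP3. In comparisons of siIGF2BP2 or siIGF2BP3 with siC, that difference and the knockdown cannot be told apart.

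The most abundant members were let-7a-3p, let-7d-3p and let-7b-3p, which held 69.5% of the 3p reads. Over the 10 libraries let-7a-3p averaged a normalised read count of 116, let-7d-3p 91.7 and let-7b-3p 75.1. The other members averaged 28.1 for let-7f-2-3p, 26.2 for let-7a-2-3p, 23.3 for let-7e-3p, 21.6 for let-7f-1-3p, 12.6 for let-7i-3p, 6.44 for let-7g-3p and 5.17 for let-7c-3p. The step from let-7b-3p to let-7f-2-3p was present in 10 of 10 libraries. Of the other steps between neighbours in this order, let-7d-3p was above let-7b-3p in 9 libraries, and let-7i-3p was above let-7g-3p in 8 with 2 ties. The remaining neighbours changed places between libraries, for example let-7a-2-3p above let-7e-3p in 5 of 10. The lowest members rest on few reads, 40 in all for let-7c-3p and 52 for let-7g-3p.

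**Figure D1:**
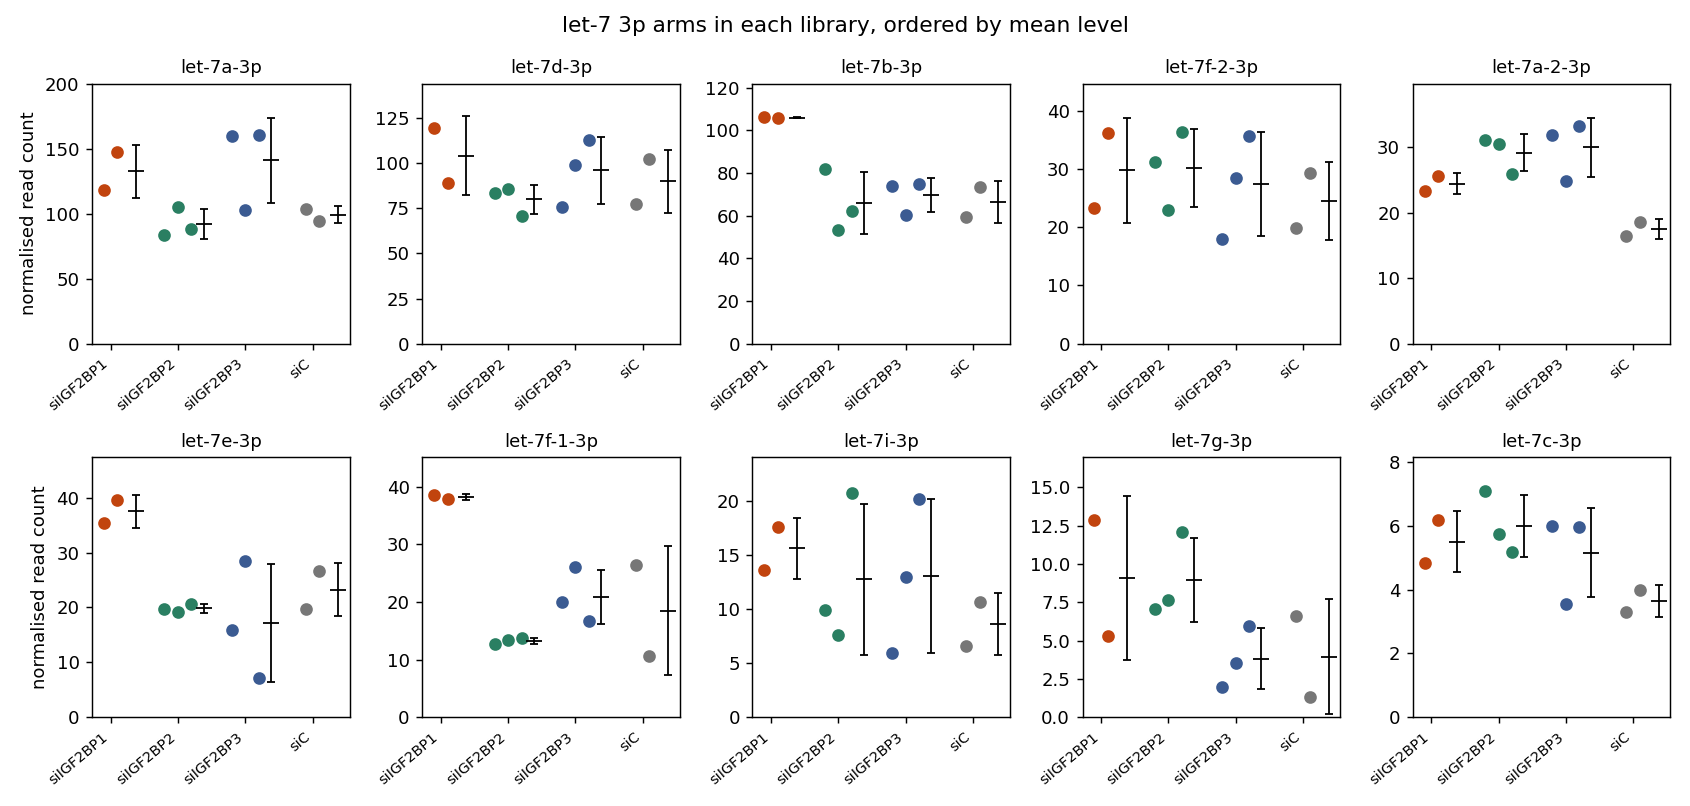
Normalised read count (vertical axes, each from 0) of the 10 let-7 3p arms, 1 panel per member in order of mean level; points are libraries, and the bar beside each group is the mean ± SD (n = 2 for siIGF2BP1 and siC, n = 3 for siIGF2BP2 and siIGF2BP3). Both siIGF2BP1 libraries stand above both siC libraries in 7 panels, and they lie closest together for let-7b-3p and let-7f-1-3p. The 2 siC libraries of let-7f-1-3p lie far apart (26.4 and 10.6), and the counts of let-7g-3p and let-7c-3p stay below 13.

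The order of the 3p arms did not follow that of the 5p arms. By mean level let-7a was highest in both, with a normalised read count of 142.5 for its 3p arms together and 167317 for let-7a-5p. The second most abundant 5p arm, let-7i-5p at 43854, had a 3p arm at rank 6 of the 8 names. In contrast let-7d and let-7b were at ranks 6 and 7 by 5p arm (2233 and 1656) and at ranks 2 and 3 by 3p arm. The 3p reads as a share of the 3p and 5p reads of a name, pooled over the libraries, were 4.45% for let-7b and 3.84% for let-7d. All the other names were below 0.5%: 0.407% for let-7e, 0.336% for let-7c, 0.150% for let-7f, 0.0858% for let-7a, 0.0395% for let-7g and 0.030% for let-7i. The pooled share of let-7b was 148-fold that of let-7i.

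In single libraries the 3p share of let-7b was 4.66% and 5.36% in siIGF2BP1, 4.79%, 3.19% and 3.99% in siIGF2BP2, 4.32%, 3.44% and 4.56% in siIGF2BP3, and 4.49% and 4.36% in siC. That of let-7d was 3.28% and 2.82% in siIGF2BP1, 4.15%, 4.47% and 4.23% in siIGF2BP2, 3.53%, 4.61% and 6.25% in siIGF2BP3, and 3.29% and 4.33% in siC. Both shares lay above those of all other names in 10 of 10 libraries, and let-7b was above let-7d in 6 of 10. The exact 95% Clopper-Pearson intervals of let-7b in a library reached from 2.13% at the lowest to 6.38% at the highest, and those of let-7d from 2.30% to 7.59%. For comparison, the 3p share of the family member miR-98 was 0.306%, within the range of the other names. The exact intervals of shares given here cover counting error only, not the scatter between libraries. They can be too narrow even for that, since the reads carry no molecular identifiers.

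The hairpins of the 2 names with the highest 3p shares and of the 2 with the lowest are shown so that the arms can be compared, with the 5p arm and then the 3p arm in capitals (RefSeq, GRCh38.p14). They are MIRLET7B at chr22:46113686-46113768 and MIRLET7D at chr9:94178834-94178920 on the plus strand, MIRLET7G at chr3:52268278-52268361 on the minus strand, and MIRLET7I at chr12:62603686-62603769 on the plus strand.
MIRLET7B: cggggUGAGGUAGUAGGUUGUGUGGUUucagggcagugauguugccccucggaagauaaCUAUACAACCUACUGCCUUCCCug
MIRLET7D: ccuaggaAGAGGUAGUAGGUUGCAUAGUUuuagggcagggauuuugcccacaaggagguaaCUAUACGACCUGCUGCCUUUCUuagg
MIRLET7G: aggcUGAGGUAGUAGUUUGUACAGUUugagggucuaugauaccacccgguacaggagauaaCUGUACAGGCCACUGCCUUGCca
MIRLET7I: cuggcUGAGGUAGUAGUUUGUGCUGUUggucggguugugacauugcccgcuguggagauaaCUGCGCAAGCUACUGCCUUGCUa
The 5p arm of let-7d is the only 1 of the 8 let-7 5p arms that starts with A. The 5p arms of let-7b, let-7g and let-7i all start with U. Whether the first base of the 5p arm bears on the 3p share was not tested.

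**Figure D2:**
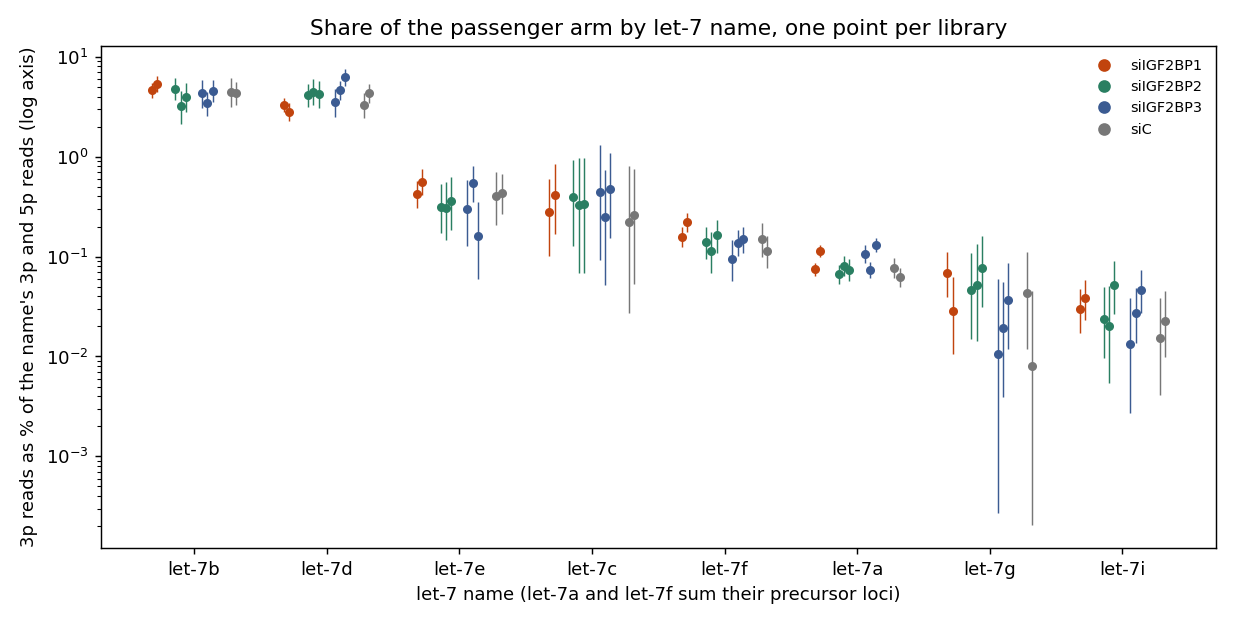
Share of the 3p arm in the 3p and 5p reads of each let-7 name (percent, log axis), 1 point per library with its exact 95% binomial interval; let-7a and let-7f sum their precursor loci. Points of let-7b and let-7d lie between 2.82% and 6.25%, above those of every other name in all 10 libraries. Names with similar shares overlap, for example let-7b with let-7d, let-7c (0.222% to 0.470%) with let-7e (0.163% to 0.561%), and let-7g with let-7i.

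In siIGF2BP1 cells all 10 members had a fitted log2 fold change above 0 relative to siC cells, 9 of 10 after scaling by median of ratios or upper quartile and with DESeq2, but none was called. The median was 0.58, against 0.10 over all 889 miRNAs tested. By limma 0 of 10 members were called at an adjusted p of 0.05 (all miRNAs: 2.47% called), with 2 at an unadjusted p under 0.05. Of all 889 miRNAs 122 were at an unadjusted p under 0.05, as were 99 of the 313 with a mean normalised read count of at least 10. With edgeR and with DESeq2 on the recovered reads 0 of 10 members were called as well. In 7 of the 10 both siIGF2BP1 libraries lay above both siC libraries, where 23.1% of all miRNAs did so. Among the 313 miRNAs with a mean normalised read count of at least 10, which include 8 of the members (not let-7g-3p and let-7c-3p), 124 did so. The 7 members that did so include let-7c-3p, which is outside these 313. Fold changes here are on the log2(value + 1) scale, which understates the change of low members, and the p-values given here reflect how far these libraries scatter, which can be technical scatter alone.

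The 2 members with an unadjusted p under 0.05 were let-7f-1-3p and let-7b-3p. Normalised read counts of let-7f-1-3p were 38.6 and 37.9 in siIGF2BP1, 12.7, 13.4 and 13.8 in siIGF2BP2, 19.96, 26.0 and 16.6 in siIGF2BP3, and 26.4 and 10.6 in siC. Both siIGF2BP1 libraries were the highest of all 10, siIGF2BP2 was low and tight, and the 2 siC libraries lay far apart. The log2 fold change of siIGF2BP1 over siC was 1.14 ± 0.40 (SE), with a 95% interval of 0.26 to 2.01 and an adjusted p of 0.177 by limma. Leaving out siC C3 gave 0.52 and leaving out siC C2 gave 1.75. The count of let-7b-3p was 106 in both siIGF2BP1 libraries, 82.1, 53.5 and 62.2 in siIGF2BP2, 73.8, 60.3 and 74.9 in siIGF2BP3, and 59.4 and 73.2 in siC. Again the siIGF2BP1 libraries were the highest of the 10, while the other 3 groups overlapped. Its log2 fold change over siC was 0.68 ± 0.25 (SE; 95% interval 0.14 to 1.21; limma adjusted p 0.192). For siIGF2BP1 against siC, the authors' deposited table gives a false discovery rate of 0.244 for let-7f-1-3p, 0.319 for let-7b-3p and 1 for every other member.

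The other 5 members whose libraries did not overlap between siIGF2BP1 and siC were let-7a-3p, let-7a-2-3p, let-7c-3p, let-7e-3p and let-7i-3p. Both siIGF2BP1 libraries were also the highest of all 10 for let-7e-3p, the passenger strand from the miR-99b and miR-125a cluster. Its counts were 35.3 and 39.7 in siIGF2BP1, 19.8, 19.1 and 20.7 in siIGF2BP2, 16.0, 28.4 and 7.14 in siIGF2BP3, and 19.8 and 26.6 in siC. The log2 fold change of let-7e-3p over siC was 0.68 with a 95% interval of -0.36 to 1.72. Counts of let-7i-3p, the passenger strand of a gene that stands alone, were 13.7 and 17.6 in siIGF2BP1, 9.90, 7.64 and 20.7 in siIGF2BP2, 5.99, 13.01 and 20.2 in siIGF2BP3, and 6.60 and 10.6 in siC. For let-7i-3p the highest library was therefore in siIGF2BP2 and the lowest in siIGF2BP3, and these groups were wide (SD 6.99 and 7.12), whereas siIGF2BP1 (SD 2.81) and siC (SD 2.86) were about equally tight. The log2 fold change over siC was 0.81 (95% interval -0.43 to 2.06) for let-7i-3p, 0.48 (-0.63 to 1.59) for let-7c-3p, 0.46 (-0.17 to 1.08) for let-7a-2-3p and 0.41 (-0.13 to 0.94) for let-7a-3p.

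The 3 members that overlapped between siIGF2BP1 and siC were let-7d-3p, let-7f-2-3p and let-7g-3p. Counts of let-7d-3p, whose gene lies beside those of let-7a-1 and let-7f-1, were 120 and 89.0 in siIGF2BP1, 83.5, 85.9 and 70.8 in siIGF2BP2, 75.8, 99.4 and 113 in siIGF2BP3, and 77.5 and 102 in siC. Its log2 fold change over siC was 0.21 (95% interval -0.34 to 0.76), the smallest of the 10, and the sign turned to -0.02 after rescaling by median of ratios, to -0.00294 by upper quartile and to -0.02 with DESeq2. Counts of let-7f-2-3p, from the HUWE1 intron, were 23.3 and 36.1 in siIGF2BP1, 31.1, 22.9 and 36.3 in siIGF2BP2, 18.0, 28.4 and 35.7 in siIGF2BP3, and 19.8 and 29.3 in siC. The 4 groups of let-7f-2-3p overlapped throughout, and its log2 fold change over siC was 0.26 (-0.58 to 1.10). Reads of let-7g-3p numbered 16 and 6 in siIGF2BP1 and 4 and 1 in siC, and its log2 fold change of 1.15 had an interval of -0.34 to 2.64. Without siC C3 it was 0.30, and without siC C2 it was 2.002.

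The median of all miRNAs also lay above 0 in this comparison. Rescaling by median of ratios moved the median of all 889 miRNAs from 0.10 to -0.01 and that of the members to 0.37, and TMM scaling gave 0.00 and 0.39. On the deposited scaling the 5p arms also had log2 fold changes above 0 in 8 of 8 cases, with a median of 0.17, and limma called 0 of 8 with 4 at an unadjusted p under 0.05. Their signs under the other scalings are not given here. Among the 5p arms let-7d-5p (0.53), let-7b-5p (0.50) and let-7e-5p (0.48) were the highest. By contrast, let-7a-5p (0.01), let-7i-5p (0.03) and let-7c-5p (0.09) lay below the 0.10 of all miRNAs. The cluster partners of let-7a-2 (miR-100 arms, miR-125b-1-3p and miR-125b-5p) had log2 fold changes below 0 in 4 of 4 cases, with a median of -0.42 and 0 called by limma, 2 of them at an unadjusted p under 0.05. Of these 2, miR-125b-5p (-0.58) has a name that does not tell the miR-125b-1 locus from that of miR-125b-2 beside let-7c. The partners of let-7e (miR-99b and miR-125a arms) were above 0 in 4 of 4 on the deposited scaling, the lowest at 0.09. Their median was 0.39, with 0 called by limma and 2 at an unadjusted p under 0.05. Those of let-7c (miR-99a arms and miR-125b-2-3p) had a median of 0.09, with 0 of 3 called by limma and 0 at an unadjusted p under 0.05.

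**Figure D3:**
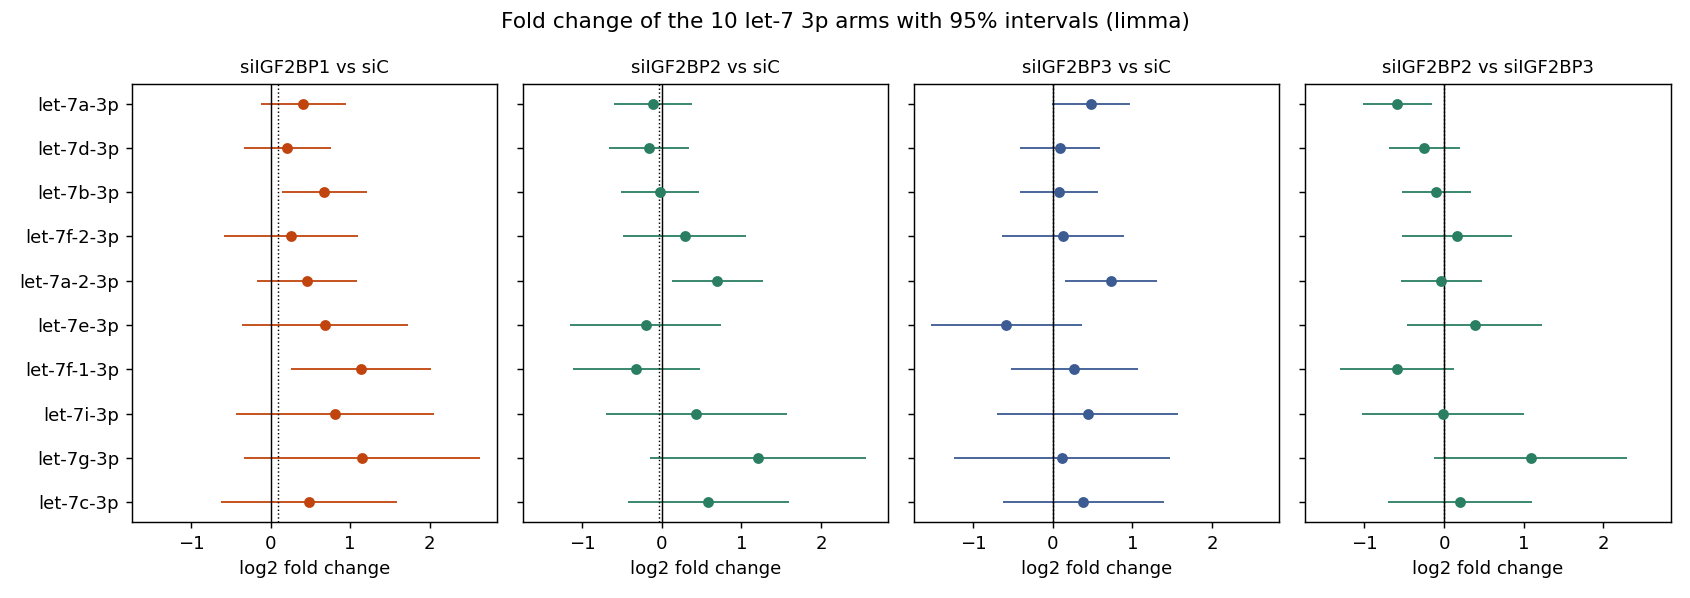
Log2 fold change (horizontal axis, group named first over group named second) of the 10 let-7 3p arms in 4 comparisons, with limma's 95% intervals; the solid line marks 0 and the dotted line the median of all 889 miRNAs. In siIGF2BP1 against siC all 10 points lie right of 0 (let-7d-3p turns slightly negative under median of ratios, upper quartile and DESeq2), while in the other 3 panels they lie on both sides, and 0 of 10 were called in every panel.

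In siIGF2BP2 cells 5 of the 10 members had log2 fold changes above 0 and 5 below 0 relative to siC cells, and 10 were above 0 after scaling by upper quartile. The median was 0.13, against -0.03 over all miRNAs, and limma called 0 of 10, where 9% of all miRNAs were called. At an unadjusted p under 0.05 there was 1 member, against 159 of all 889 miRNAs and 84 of the 313 with a mean of at least 10. With edgeR and DESeq2 0 of 10 members were called as well. In 3 members every siIGF2BP2 library lay above both siC libraries, where 10.7% of all miRNAs and 71 of the 313 with a mean of at least 10 did so. These were let-7a-2-3p, let-7g-3p and let-7c-3p, of which only let-7a-2-3p is among the 313. Normalised read counts of let-7a-2-3p, the strand that reports the MIR100HG locus, were 31.1, 30.5 and 25.9 in siIGF2BP2, 31.9, 24.8 and 33.3 in siIGF2BP3, 23.3 and 25.6 in siIGF2BP1, and 16.5 and 18.6 in siC. All 8 knockdown libraries were above both siC libraries, which hold 10 and 14 reads of it. Its log2 fold change of siIGF2BP2 over siC was 0.70 ± 0.26 (SE; 95% interval 0.12 to 1.27; limma adjusted p 0.154). Rescaling by upper quartile raised it to 1.16 with an adjusted p of 0.0130 by limma, while moving the median of all miRNAs from -0.03 to 0.30.

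Reads of let-7g-3p, the passenger strand of the WDR82 intron, numbered 5, 4 and 7 in siIGF2BP2, 1, 3 and 5 in siIGF2BP3, 16 and 6 in siIGF2BP1, and 4 and 1 in siC. As normalised read counts these were 7.07, 7.64 and 12.1 in siIGF2BP2, 1.996, 3.55 and 5.95 in siIGF2BP3, 12.9 and 5.29 in siIGF2BP1, and 6.60 and 1.33 in siC. The siIGF2BP2 libraries were above those of siIGF2BP3 and siC, but by a few reads only. The log2 fold change of siIGF2BP2 over siC was 1.20 with a 95% interval of -0.15 to 2.56 and an adjusted p of 0.367 by limma, and it was 0.35 without siC C3 and 2.06 without siC C2. Counts of let-7c-3p, from the MIR99AHG locus, were 7.07, 5.73 and 5.18 in siIGF2BP2, 5.99, 3.55 and 5.95 in siIGF2BP3, 4.82 and 6.17 in siIGF2BP1, and 3.30 and 3.99 in siC. Its 2 siC libraries held 2 and 3 reads, and its log2 fold change of siIGF2BP2 over siC was 0.59 (95% interval -0.43 to 1.596; limma adjusted p 0.627).

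In siIGF2BP3 cells 9 of the 10 members had log2 fold changes above 0 relative to siC cells, with a median of 0.20 against 0.00 over all miRNAs, and 8 and 7 were above 0 after TMM and median-of-ratios scaling. With edgeR 7 and with DESeq2 6 of the 10 were above 0, with medians of 0.09 and 0.08. Without siIGF2BP3 replicate 3 it was 6 of 10 with a median of 0.05, and without siC C2 6 of 10 with a median of 0.20. By limma 0 of 10 were called, where 10.6% of all miRNAs were called, and with edgeR and DESeq2 0 of 10 were called as well. At an unadjusted p under 0.05 there was 1 member, against 185 of all 889 miRNAs and 108 of the 313 with a mean of at least 10. The libraries did not overlap for 1 member, let-7a-2-3p, which was higher in siIGF2BP3, where 11.2% of all miRNAs and 79 of the 313 with a mean of at least 10 were higher without overlap. Its log2 fold change was 0.73 ± 0.26 (SE; 95% interval 0.16 to 1.31; limma adjusted p 0.117). Counts of let-7a-3p, the strand shared by the chromosome 9 and chromosome 22 loci, were 160, 103 and 161 in siIGF2BP3, 83.5, 105 and 88.1 in siIGF2BP2, 118 and 147 in siIGF2BP1, and 104 and 94.5 in siC. Replicates 1 and 3 of siIGF2BP3 were the highest of all 10 libraries, and replicate 2 lay with siC. Its log2 fold change of siIGF2BP3 over siC was 0.48 (95% interval -0.01 to 0.96; limma adjusted p 0.252). The exception to the direction was let-7e-3p at -0.59 (-1.54 to 0.36; limma adjusted p 0.535), for which siIGF2BP3 libraries held 8, 24 and 6 reads. After rescaling by upper quartile let-7a-2-3p at 1.31 and let-7a-3p at 1.07 were called (adjusted p 0.00420 each by limma), while the median of all miRNAs moved from 0.00 to 0.45. The comparisons with siC share their 2 control libraries, so the values of siIGF2BP1, siIGF2BP2 and siIGF2BP3 against them are not independent.

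Between siIGF2BP2 and siIGF2BP3, which carry the same source name and share no control, the members were on both sides of 0. Their median log2 fold change was -0.02, against 0.00 over all miRNAs, with 4 above and 6 below 0, and 6 above 0 after scaling by median of ratios. By limma 0 of 10 were called, where 3.15% of all miRNAs were called, and with edgeR and DESeq2 0 of 10 were called as well. At an unadjusted p under 0.05 there was 1 member, against 123 of all 889 miRNAs and 89 of the 313 with a mean of at least 10. The member with the lowest p was let-7a-3p, with a log2 fold change of siIGF2BP2 over siIGF2BP3 of -0.59 ± 0.20 (SE; 95% interval -1.02 to -0.15; limma adjusted p 0.171). Its libraries overlapped, since 1 siIGF2BP2 library reached 105 and 1 siIGF2BP3 library was at 103. The libraries did not overlap for let-7g-3p, which was higher in siIGF2BP2 (1.09, 95% interval -0.13 to 2.30; limma adjusted p 0.405), and for let-7f-1-3p, which was lower in siIGF2BP2 (-0.59, -1.31 to 0.12; limma adjusted p 0.448). Of all miRNAs 7.31% were higher and 7.99% lower without overlap. Among the 313 with a mean of at least 10, which do not include let-7g-3p, 49 were higher and 54 lower.

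The main arms and cluster partners of these loci were counted in the same 3 comparisons. Of the 8 let-7 5p arms limma called 0 in each, with 2 at an unadjusted p under 0.05 in siIGF2BP2 against siC, 0 in siIGF2BP3 against siC and 5 in siIGF2BP2 against siIGF2BP3. In the last, 123 of all 889 miRNAs and 89 of the 313 with a mean of at least 10 were under 0.05 too. The 5p arms there were above 0 in 2 cases and below 0 in 6. In siIGF2BP3 against siC, 2 of the 4 partners of let-7a-2 had log2 fold changes above 0 and 2 below 0 (miR-100-5p -0.45, miR-125b-5p -0.19). Of these 4, 1 was called, higher in siIGF2BP3 than in siC. This was miR-125b-1-3p, from the same MIR100HG locus as let-7a-2-3p, with normalised read counts of 2223, 2701 and 2526 in siIGF2BP3 and of 1559 and 1733 in siC. Its libraries did not overlap, and its log2 fold change was 0.59 (limma adjusted p 0.00380, and 0.0508 without siC C2). In siIGF2BP2 against siIGF2BP3, 3 of the 4 partners of let-7e were above 0 and 1 below 0, and 1 was called, higher in siIGF2BP2. This was miR-125a-5p, with counts of 2748, 2425 and 2474 in siIGF2BP2 and of 1768, 2043 and 1929 in siIGF2BP3. Its log2 fold change was 0.41 (limma adjusted p 0.0450), and the call was lost when any of the 10 libraries was left out. Of the miR-98 arms, which share the HUWE1 intron with let-7f-2-3p, miR-98-5p was called lower in siIGF2BP2 than in siC, at a log2 fold change of -0.35 (limma adjusted p 0.0382). That call was lost without any 1 of the 3 siIGF2BP2 or 2 siC libraries, and the sign turned after scaling by upper quartile (0.13). None of the 3 partners of let-7c was called by limma in any of these comparisons, with 1 at an unadjusted p under 0.05 in siIGF2BP2 against siIGF2BP3.

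The reads of all 10 members together were then set against all reads of let-7 names. This removes a change common to all names and arms, but not changes of single names. Of the 3p reads, let-7d-3p held 22.5% and let-7b-3p 18.9%, whereas the 5p reads were mostly let-7a-5p. In siIGF2BP1 against siC the log2 fold change was 0.53 for let-7d-5p, 0.50 for let-7b-5p and 0.01 for let-7a-5p. Their part in the share was not tested. The 3p share was 0.160% and 0.194% in siIGF2BP1, 0.135%, 0.133% and 0.141% in siIGF2BP2, 0.139%, 0.135% and 0.188% in siIGF2BP3, and 0.133% and 0.127% in siC. Both siIGF2BP1 libraries and siIGF2BP3 replicate 3 stood above the other 7, which lay between 0.127% and 0.141%. The mean was 0.177% in siIGF2BP1 and 0.130% in siC (two-sided exact permutation p = 0.333, adjusted over 12 tests 0.571), and 0.333 is the smallest p that 2 against 2 libraries allow. Means were 0.137% in siIGF2BP2 and 0.154% in siIGF2BP3, each not overlapping with siC (exact permutation p = 0.2 each, adjusted 0.4, the smallest p that 3 against 2 allow). Between siIGF2BP2 and siIGF2BP3 the exact permutation p was 0.6.

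By name, the log2 ratio of the 3p arm to its 5p arm was above siC in 7 of 8 names in siIGF2BP1, with a median difference of 0.40 against 0.05 over 226 arm pairs. By limma 0 of 8 were called, with 0 at an unadjusted p under 0.05, where 0% of all pairs were called and 20 of the 226 were at an unadjusted p under 0.05. The differences ran from 0.92 for let-7g (95% interval -0.69 to 2.54) and 0.78 for let-7i (-0.54 to 2.09) to 0.18 for let-7b (-0.40 to 0.75). The value of let-7g was 0.00840 without siC C3 and 1.84 without siC C2. The exception was let-7d at -0.32 (-0.97 to 0.32), whose 5p arm stood further above siC than its 3p arm. In siIGF2BP2 against siC 0 of 8 were called by limma with 0 at an unadjusted p under 0.05 (5.75% of all pairs called), in siIGF2BP3 against siC likewise 0 of 8 with 0 (5.31%), and in siIGF2BP2 against siIGF2BP3 0 of 8 with 0 (0.442%). The lowest unadjusted p among these belonged to let-7g in siIGF2BP2 against siIGF2BP3, with a difference in log2 ratio of 1.32 (95% interval -0.01 to 2.64; limma adjusted p 0.485).

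**Figure D4:**
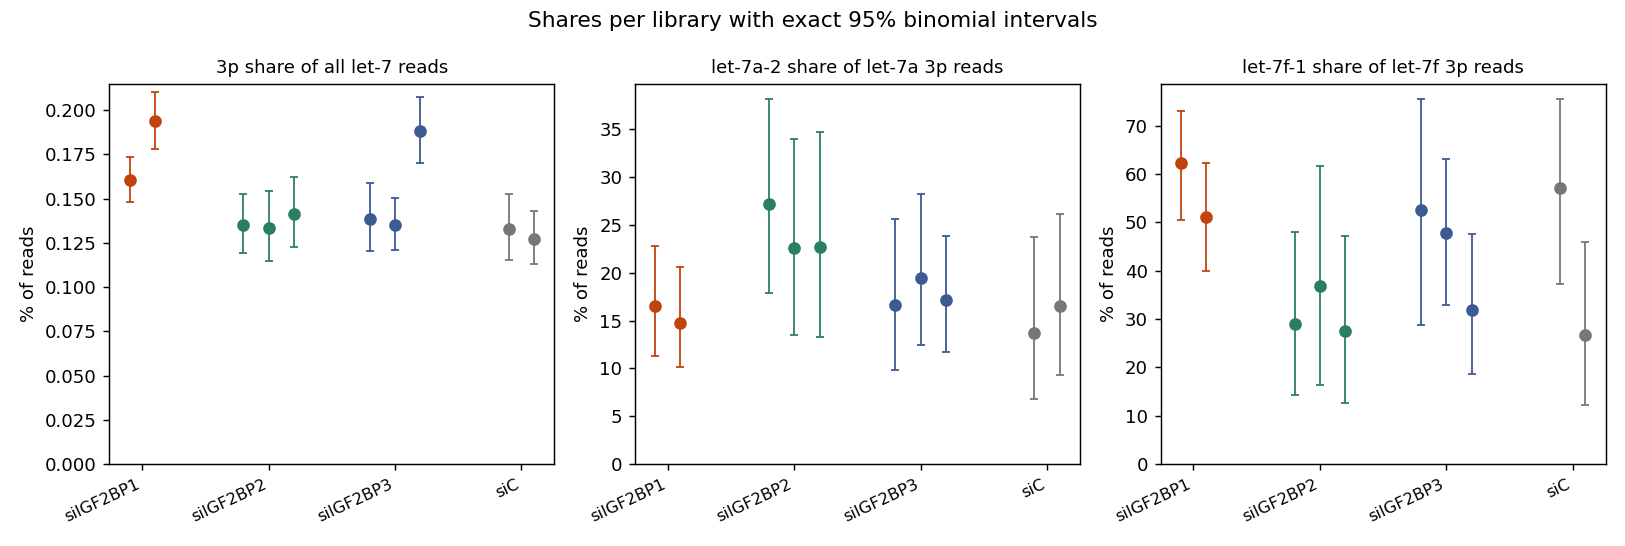
Shares per library with exact 95% binomial intervals (percent, axes from 0): all 3p arms among let-7 reads (left), let-7a-2-3p among let-7a 3p reads (middle) and let-7f-1-3p among let-7f 3p reads (right), with siIGF2BP1, siIGF2BP2, siIGF2BP3 and siC from left to right. The siIGF2BP2 libraries are the 3 highest in the middle panel at 22.5% to 27.2%, and the 2 siC libraries of the right panel lie at 57.1% and 26.7%.

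The 3p arms tell apart loci that share a 5p product, although a locus's share of the 3p reads does not measure its 5p output. Of the let-7a 3p reads, let-7a-2 made up 27.2%, 22.5% and 22.7% in siIGF2BP2, 16.7%, 19.4% and 17.2% in siIGF2BP3, 16.5% and 14.8% in siIGF2BP1, and 13.7% and 16.5% in siC. The 3 siIGF2BP2 libraries were the highest of the 10. The mean was 24.1% ± 2.62 in siIGF2BP2 and 17.8% ± 1.48 in siIGF2BP3 (SD, n = 3 each; two-sided exact permutation p = 0.1, the smallest that 3 against 3 allow, adjusted over 12 tests 0.4). In siC it was 15.1% ± 1.96 (SD, n = 2), and the exact permutation p was 0.2 for siIGF2BP2 against siC and for siIGF2BP3 against siC, and 0.667 for siIGF2BP1 at 15.6% against siC. Each library's share has a wide counting interval, for example 13.5% to 34.0% for siIGF2BP2 replicate 2 and 11.7% to 23.9% for siIGF2BP3 replicate 3, which overlap. The share can differ through let-7a-3p as well as through let-7a-2-3p, and between siIGF2BP2 and siIGF2BP3 the log2 fold change was -0.59 for let-7a-3p and -0.03 for let-7a-2-3p. The 2 rows of let-7a-3p, for the copies on chromosomes 9 and 22, carry the same sequence, so reads cannot be assigned to either copy from the arm itself. They held 478 and 437 reads.

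Of the let-7f 3p reads, let-7f-1 made up 62.3% and 51.2% in siIGF2BP1, 29.03%, 36.8% and 27.6% in siIGF2BP2, 52.6%, 47.8% and 31.8% in siIGF2BP3, and 57.1% and 26.7% in siC. The siC libraries spanned nearly the whole range of the other 8, so no direction against siC can be read. The exact permutation p was 0.667 for siIGF2BP1, 0.8 for siIGF2BP2 and 1 for siIGF2BP3 against siC. The mean was 31.2% in siIGF2BP2 and 44.1% in siIGF2BP3 (exact permutation p = 0.2). The siC libraries hold 28 and 30 let-7f 3p reads, with exact 95% intervals of 37.2% to 75.5% and 12.3% to 45.9%.

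Across the 10 libraries the miRNAs whose levels were most like the summed level of the members were miR-671-3p, miR-22-3p and miR-25-5p. Pearson's r of log2 values was 0.85, 0.84 and 0.81 over 10 libraries, the highest of 305 miRNAs with a mean normalised read count of at least 10. All values come from the same libraries and share their depth and scaling. The summed level itself was 496 and 510 in siIGF2BP1, 368, 351 and 356 in siIGF2BP2, 409, 390 and 473 in siIGF2BP3, and 340 and 371 in siC.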

How the data were processed

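Per the labels, TRIZOL was used to extract RNA, which went into size-selected Illumina TruSeq small RNA libraries. Tools in the submitters' processing notes are edgeR 3.12, featureCounts 1.4.6, Bowtie2 2.2.4 and cutadapt 1.6, with the build hg19. The sources used here do not give the scaling or the treatment of multiple placements. The deposited library columns are a normalised signal made by the authors, called normalised read count. In every library 100% of values were whole multiples of 1 read within 0.01 reads, so reads were recovered. The deposited p-values, false discovery rates and log2 fold changes enter only in sentences that name the authors' table. Other columns unused numbered 0. Rows of 1 mature name were summed.

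The values were tested with limma 3.58.1 (R 4.3.3), on log2(value + 1) with its trend option. A single fit of the 4 groups covered 889 miRNAs that reached 1 in 2 or more libraries, and p-values were adjusted over all of them by Benjamini-Hochberg (threshold 0.05). Arm ratios were fitted the same way over 226 pairs, and shares were compared by exact permutation (scipy 1.17.1). Since the columns were normalised, edgeR 4.0.16 and DESeq2 1.42.0 on recovered reads served as alternatives. The fits were tested on simulated data.

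The members and lists were chosen with earlier results of these data known. All 10 members are described in siIGF2BP1 against siC; elsewhere fold changes are given for the 3 with the lowest p. Sequences and positions are RefSeq's, for GRCh38.p14, and gene contexts are GENCODE's. Alternatives were other pseudocounts, filters, scalings and tools, 1 row per name, the fit to 2 groups alone, each library left out and a replicate block.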

Additional observations from a re-analysis of the deposited data

How the results depend on the processing

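The count of members called stayed at 0 of 10 in each comparison under all alternatives except scaling by upper quartile, which gave 1 in siIGF2BP2 against siC and 2 in siIGF2BP3 against siC. Under the same scaling the members' median moved to 0.60 and 0.77. The 3p to 5p ratios gave 0 of 8 called under every alternative run. For let-7d-3p in siIGF2BP1 against siC the log2 fold change became -0.0213 with median of ratios, -0.00294 with upper quartile and -0.0212 with DESeq2, and ran from -0.00170 (without siIGF2BP1 replicate 1) to 0.42 when 1 library was left out. For let-7f-2-3p the range was -0.0464 (without siIGF2BP1 replicate 2) to 0.57, with -0.0114 without siC C2. For miR-98-5p in siIGF2BP2 against siC the log2 fold change was 0.127 with upper quartile. The let-7f arm ratio in siIGF2BP2 against siIGF2BP3 ran from -0.04997 (without siIGF2BP3 replicate 1) to 0.28. The difference in the let-7a-2 share of siIGF2BP1 minus siC ran from -0.834 (without siC C2) to 1.94 percentage points, with -0.289 without siIGF2BP1 replicate 1. Differences in the let-7f-1 share against siC ran from -0.379 (without siC C3) to 30.1 points for siIGF2BP1, from -26.0 to 4.49 (without siC C2) for siIGF2BP2 and from -13.1 (without siC C3) to 17.4 for siIGF2BP3, with -2.08 without siIGF2BP3 replicate 1. The cause of these changes was not tested. With a filter of at least 10, let-7c-3p was left out, and the members' median in siIGF2BP2 against siC was -0.02.

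For siIGF2BP2 and siIGF2BP3 the deviations of each library from its group mean were correlated over 313 miRNAs. Same-numbered libraries had correlations of -0.12, -0.16 and -0.04, and differently numbered ones ran from -0.05 to 0.20. With 3 libraries per group this cannot decide whether the replicate numbers pair the libraries. With the replicate block 0 of 10 members and 0 of 8 ratios were called, and the count over all miRNAs was 1 in place of 28. The call of miR-125a-5p was lost with the block (limma adjusted p 0.438). The values of let-7g-3p, let-7c-3p and let-7i-3p rest on 1 to 20 reads per library, and the size of difference that this depth can show was not tested.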
